A study of Panicum sumatrense with 28 samples.

Results

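Young root was compared with young leaf in the cereal little millet (Panicum sumatrense), genotype JK-8. Both organs were taken at 13 days after sowing from plants raised in a growth chamber, with no treatment named in the labels. The comparison used 5 of the 28 RNA-seq libraries of a tissue atlas, chosen by their labels: 2 of young root and 3 of young leaf. The other 23 libraries came from 8 tissues: germinating seed (2 days), radicle and plumule (3 days), crown meristem (26 days), vegetative stem (48 days), and early, mid and late panicle (61, 73 and 85 days). Nothing in the labels says that the libraries of a tissue came from separate plants. The p-values therefore measure spread between libraries of the same tissue, which may be technical. RNA was extracted by either of a pair of methods, a column kit or a phenol reagent, and the labels do not say which was used for young root or young leaf.

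The root anchors the plant and takes up water and mineral nutrients, which membrane transporters load into the vascular tissue for the shoot. The leaf carries out photosynthesis, and in most grasses a small number of nuclear genes for light capture and carbon fixation give rise to much of its messenger RNA. The radicle and the plumule are the embryonic root and shoot, so they are the early counterparts of the organs compared here. In whole organs, fewer cells of a type and less RNA per cell cannot be told apart.

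The deposited values are TPM (each transcript's share of the reads of its library, corrected for transcript length) that the authors scaled between libraries by TMM (trimmed mean of M-values). They are given for 101935 transcripts assembled without a reference genome. Identifiers in the table carry no gene names, so no root or leaf marker gene could be looked up to check the labels. Of the strong transcripts, 2 on each side are named by their assembly identifier, and the others are described as sets. The depth of the libraries is unknown, since TPM does not retain the number of reads.

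Young root and young leaf differed first in how evenly their RNA was spread. The library sums were 2753439 and 3202138 in the young root libraries, against 1155526, 1155464 and 1169385 in the young leaf libraries. Without the 10 most abundant of the transcripts higher in young root they were 1108657 and 972155 in young root, against 1150705, 1151373 and 1165024 in young leaf. Without these 10 transcripts, both young root sums lay below the young leaf sums. The fewest transcripts that together reached 50% of a library total numbered 4 and 2 in young root, against 394, 347 and 334 in young leaf. Radicle had 189, 63 and 109 and late panicle 131, 100 and 291, while the libraries of the remaining tissues had 557 to 2277.

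Young root had fewer transcripts at a value of 1 or more, 28321 and 27559, against 31168, 29631 and 31201 in young leaf. The libraries did not overlap between the organs (exact permutation test, two-sided, p = 0.1, the smallest that 2 against 3 libraries allow). At a value of 10 or more the counts overlapped, with 12675 and 11242 in young root and 12162, 11631 and 11644 in young leaf (exact permutation p = 0.8), and at 5 or more the mean was higher in young root (18012.5, against 17441.7 in young leaf, exact permutation p = 0.5). The young root libraries were also less alike than the young leaf libraries. Of the transcripts at 1 or more in both libraries of a pair, 19.3% lay at least 2-fold apart between the young root libraries, against 6.07% to 7.97% for the 3 pairs of young leaf libraries. The 2 young root libraries carry library identifiers of different series, and the young leaf libraries carry those of 1 series. Only young root library 1 shares the series of the young leaf libraries, so organ and identifier series can be told apart only in part.

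Transcripts at 1 or more in at least 2 of the 28 libraries were kept, which left 77548. The difference between the organs was tested with limma on log2(value + 1) in a fit of all 28 libraries. The fit took 1 variance per transcript over all 10 tissues, so its p-values reflect mostly the spread within the 8 tissues not compared. It assumed that the young root libraries vary like the others, although they were less alike than the young leaf libraries. Calls needed a log2 difference of 1 or more in either direction together with an adjusted p (Benjamini-Hochberg) under 0.05. In this fit 22224 transcripts differed (28.7% of those tested): 9755 (12.6%) were higher in young root and 12469 (16.1%) were lower. In 8367 of the higher ones (10.8% of those tested) both young root libraries lay above the 3 young leaf libraries, and in 11795 of the lower ones (15.2% of those tested) both lay below them. Called or not, both young root libraries lay above the young leaf libraries in 14% of the transcripts tested and below them in 20.9%. Differences of 16-fold or more were found in 1617 higher transcripts (2.09%) and 1651 lower ones (2.13%). These counts depended on the settings: they were 592 and 2047 with the libraries rescaled to a common sum, 4272 and 6114 with a pseudocount of 0.1, and 484 and 531 with a pseudocount of 5.

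The balance of higher and lower calls depended on the scaling. The lower transcripts were 56.1% of the calls with the values as deposited and 77.5% with the libraries rescaled to a common sum, where 4843 were higher and 16641 lower. Over the 14753 transcripts at 1 or more in all 5 libraries, the log2 difference had a median of -0.34 in the deposited values and -1.39 with a common sum. With a common sum that left out the 10 most abundant transcripts of young root, the lower share was 52.9%. The 4843 higher transcripts under the common sum were all higher as deposited too, and 11908 of the 12469 lower ones were lower under both. Young root library 1 and the young leaf libraries carry library identifiers of 1 series, and young root library 2 those of another. Within the first series 10664 transcripts were higher and 11192 lower, with 1 young root library in the fit; the second series holds no young leaf library.

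**Figure D1:**
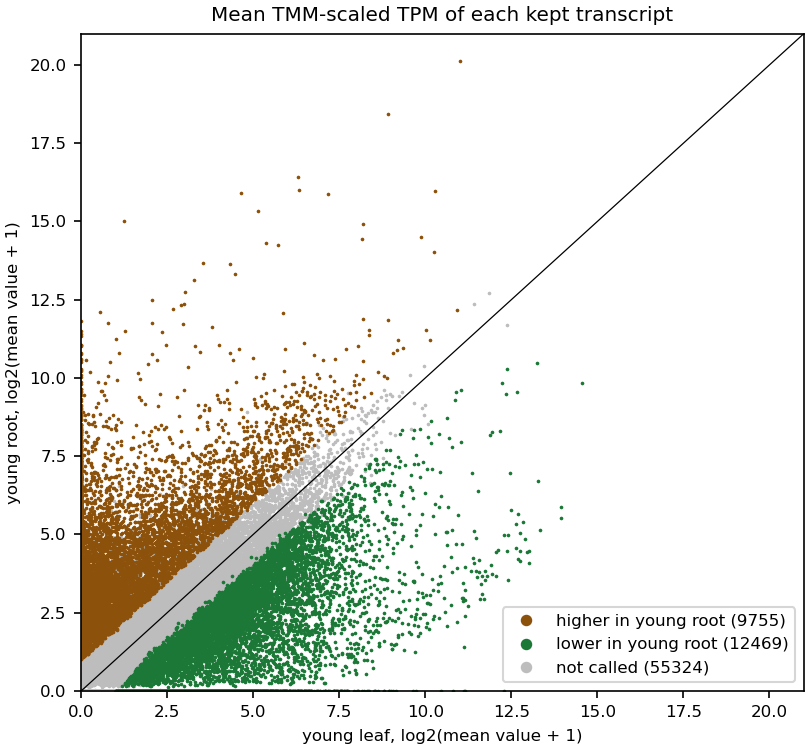
Mean TMM-scaled TPM of each of the 77548 kept transcripts in young leaf (horizontal axis, n = 3 libraries) and young root (vertical axis, n = 2 libraries), both as log2(mean + 1), with the line of equal values. The 9755 transcripts higher in young root and the 12469 lower ones are coloured by the limma call, and a small number of root transcripts lie far above every leaf transcript.

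Calls were more frequent among transcripts of higher level. Of the 24335 transcripts whose average over the means of both organs was between 1 and 10, 23.6% were higher in young root and 26.7% lower. Of the 1354 between 100 and 1000, 40.5% were higher and 39.4% lower. Of the 136 at 1000 or more, 57 were higher and 75 lower, so 97.1% were called. Of the 40378 below 1, 2.93% were called. With a pseudocount of 1, transcripts near 0 can hardly reach a log2 difference of 1, so part of this rise follows from the rule for calls.

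Many differences were between presence and absence in the table. Of the 9755 higher transcripts, 3259 (33.4%) were listed at 0 in the 3 young leaf libraries, and 4194 (43.0%) reached 1 in at least 1 of them. In young root itself, 1353 of the 9755 were listed at 0 in 1 of the 2 libraries, so their higher mean rests on 1 library. Of the 12469 lower transcripts, 5009 (40.2%) were listed at 0 in both young root libraries, and 6824 (54.7%) reached 1 in at least 1. Transcripts listed at 0 on the other side were mostly of low level: the median of their means was 8.63 in young root for the higher ones and 4.63 in young leaf for the lower ones. A mean of 100 or more was reached by 169 and 76 of them. A value of 0 without read counts can be a failed estimate, so for such transcripts the fitted log2 difference depends on the pseudocount and is no measured fold. They are included in the counts and rankings by size of difference.

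The transcripts higher in young root held 87.5% and 91.1% of the summed values in young root, against 6.13%, 5.57% and 5.09% of the young leaf totals. The lower ones held 2.80% and 2.25% of the summed values in young root, against 75.0%, 76.7% and 76.8% of the young leaf totals. These shares describe the calls and are no further test, since the same libraries made them.

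The levels in the other 8 tissues did not enter the difference between the organs, but their libraries took part in the filter and in the variance of the fit. With only the 5 compared libraries in the fit, 5832 transcripts were higher and 7749 lower. The transcripts higher in young root held 73.3% to 77.5% of the radicle totals and 38.9% to 51.7% of the germinating seed totals. In plumule, crown meristem, vegetative stem and early and mid panicle the tissue means were between 22.6% and 32.0%, and in late panicle 14.3% to 16.2%. The transcripts lower in young root held 4.71% to 6.11% of the radicle totals and 17.3% to 22.6% of the germinating seed totals. They held 36.7% to 43.1% in plumule, 37.4% to 41.1% in early panicle and 31.1% to 35.8% in mid panicle. Radicle was thus nearest to young root in both sets. Nearest to young leaf were plumule and early panicle in the lower set, and late panicle in the higher set.

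**Figure D2:**
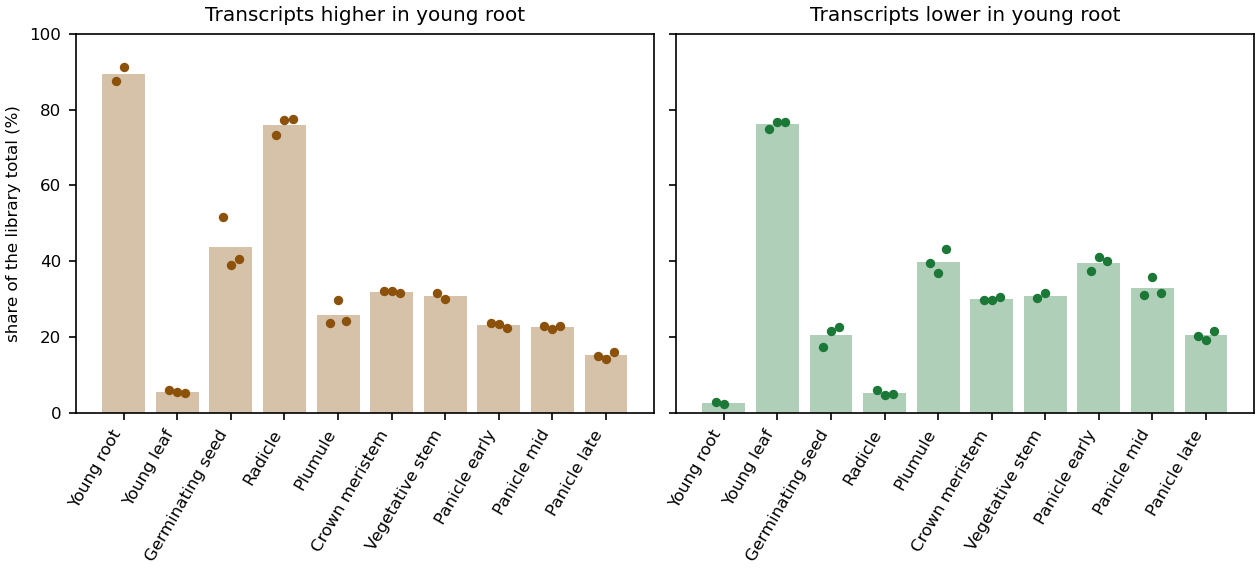
Share of each library total, in percent, held by the 9755 transcripts higher in young root (left) and by the 12469 lower ones (right) in the 10 tissues. Bars are tissue means and points are single libraries; radicle lies closest to young root in both panels, and germinating seed library 1 lies above libraries 2 and 3 on the left.

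By the mean over its libraries, young root was the highest of the 10 tissues for 4514 of the higher transcripts (46.3%), and radicle for 2790 (28.6%). Among the other 8 tissues, radicle was the highest for 4479 (45.9%), against 15.3% of all kept transcripts. Germinating seed was the highest for 1531 (15.7%), against 12.6% of all kept transcripts. For the lower transcripts, young leaf was the highest of the 10 tissues in 6200 cases (49.7%). Their next tissues were spread out, with plumule highest of the other 8 for 20.9%, early panicle for 17.6%, late panicle for 17.0% and radicle for 3.64%. Over all kept transcripts, these shares were 18.6% for plumule, 13.1% for early panicle and 9.56% for late panicle.

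A mean of 1 or more in all of the other 8 tissues was reached by 3585 of the higher transcripts (36.8%) and 5537 of the lower ones (44.4%), and by 21.7% of all kept transcripts. A mean of 1 in none of them was found for 1103 of the higher transcripts (11.3%) and 764 of the lower ones (6.13%), and for 13.99% of all kept transcripts. Since a transcript had to reach 1 in at least 2 of the 28 libraries to be kept, these shares depend in part on that filter.

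The 4 named transcripts were the one with the largest difference and the one with the highest level on each side. TRINITY_DN4135_c0_g2_i1 had the largest difference of those higher in young root. Its values were 27980 and 38403 in the young root libraries, against 0, 0 and 4.15 in the young leaf libraries. It was the tenth and the ninth most abundant transcript of the young root libraries, with 1.02% and 1.20% of their totals. The log2 difference was 14.21 (SE 1.0, limma adjusted p = 1.3e-10). Of the other tissues, radicle came next with 158, 1570 and 2446 in its libraries, which spread widely but lay below both young root libraries. No library of the remaining 7 tissues was above 5.4, and it was listed at 0 in every plumule, vegetative stem and late panicle library.

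TRINITY_DN7657_c1_g1_i63 was the most abundant transcript of young root. It had 902966 and 1368107 in the young root libraries, against 2161, 1977 and 2009 in the young leaf libraries (log2 difference 9.08, SE 0.61, limma adjusted p = 6.0e-11). It ranked first in both young root libraries and between 63rd and 77th in the young leaf libraries, so it was also an abundant leaf transcript. With quantile normalization, which gives each library the same distribution of values, the log2 difference was 4.51. Young leaf was not where it was lowest: the mean was 1472 in vegetative stem, 1766 in plumule and 1783 in mid panicle, against 2049 in young leaf. Radicle had 251085, 461752 and 389854, and crown meristem 3799, 6376 and 5198. Germinating seed had 73379 in library 1 and 7082 and 7909 in libraries 2 and 3. It was the only kept transcript of its read cluster, a set of transcripts that the assembler groups by shared sequence.

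TRINITY_DN61880_c0_g1_i1 had the largest difference of those lower in young root. It was listed at 0 in both young root libraries, against 4724, 5179 and 5066 in the young leaf libraries (limma adjusted p = 2.0e-13). It was not at 0 in radicle, where it had 28.75, 44.7 and 10.8, nor in germinating seed, where it had 3.42, 6.65 and 2.21. Early panicle came next to young leaf with 334, 911 and 579, followed by mid panicle and plumule, and the libraries of these 3 tissues overlapped.

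TRINITY_DN36129_c0_g1_i1 was the most abundant transcript of young leaf and ranked first in its 3 libraries. It had 1230 and 583 in the young root libraries, against 25455, 21746 and 24419 in the young leaf libraries (log2 difference -4.81, SE 0.36, limma adjusted p = 4.1e-10). Its share was 0.0447% and 0.0182% of the young root totals, against 2.20%, 1.88% and 2.09% of the young leaf totals. It was present in every tissue: plumule had 12110, 8361 and 12733, and radicle had 2071, 947 and 551, a range that takes in both young root values. In a fit of only the 5 compared libraries, neither TRINITY_DN7657_c1_g1_i63 nor TRINITY_DN36129_c0_g1_i1 was called (limma adjusted p = 1.0 for both). There the modelled trend of variance with level gave them log2 standard errors of 720 and 40.9, and without that trend both were called (adjusted p = 0.00067 and 0.0077). Within the first library series the limma adjusted p was 0.16 and 0.055 with the trend, and 0.0001 and 1.8e-05 without it.

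**Figure D3:**
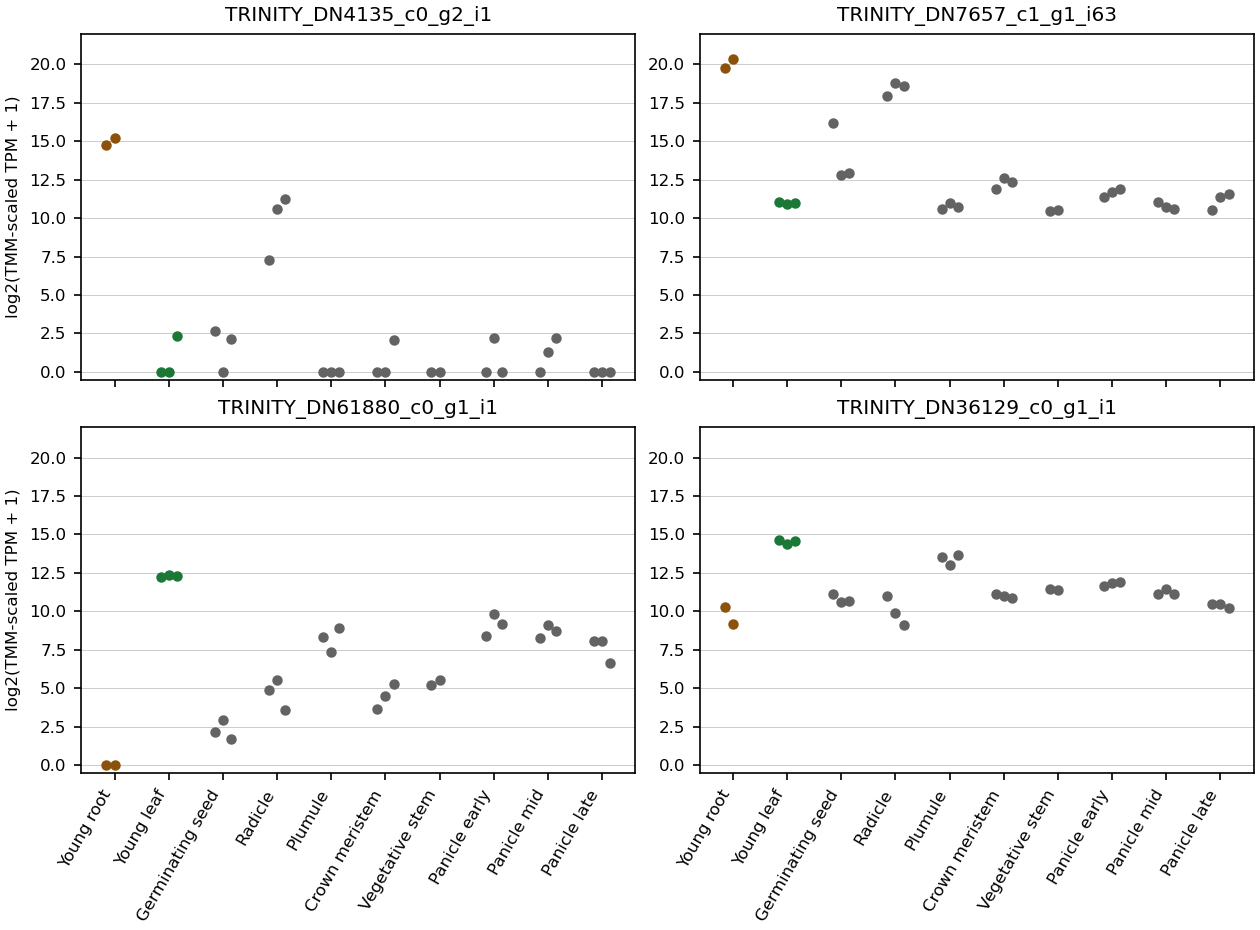
Values of the 4 named transcripts in each of the 28 libraries, as log2(TMM-scaled TPM + 1), by tissue; points are single libraries, with young root in brown and young leaf in green. The upper 2 transcripts are high in young root and radicle, the lower left one is at 0 in young root, and the lower right one is present in every tissue.

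The next-ranked root transcripts carried much of the rest of the root total. The second most abundant one held 11.9% and 12.0% of the young root totals, against 0.0445%, 0.0382% and 0.0407% of the young leaf totals. The 10 most abundant higher transcripts, those named included, held 59.7% and 69.6% of the young root totals, against 0.417%, 0.354% and 0.373% of the young leaf totals. Their log2 differences ran from 5.68 to 14.21. In the young root libraries they differed by a median of 1.28-fold between library 1 and library 2 and by at most 2.80-fold. They held 23.5% to 39.9% of the radicle totals, while germinating seed had 12.1% in library 1 and 1.54% and 2.45% in libraries 2 and 3. Radicle was the highest of the other 8 tissues for 6 of these transcripts and germinating seed for 4; without germinating seed library 1, radicle was the highest for all 10.

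Abundance in young leaf was shared among more transcripts. The 10 most abundant lower transcripts held 0.129% and 0.0546% of the young root totals, against 10.1%, 9.999% and 10.3% of the young leaf totals. Their log2 differences ran from -10.48 to -2.83. The smallest was that of the sixth most abundant, with 1772 and 1068 in young root, against 9949, 9802 and 9558 in young leaf (SE 0.53, limma adjusted p = 1.5e-04). In the median over these 10 transcripts, young root had 39.5, radicle 3.82 and germinating seed 2.67, against 1170 in plumule, 1162 in early panicle and 9856 in young leaf.

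The 50 largest differences on each side, among calls whose libraries did not overlap, were followed through the other tissues. On the root side they ran from 9.28 to 14.21 on the log2 scale, with 9.26 for the next transcript outside the set. On the leaf side they ran from -12.28 to -8.55, with -8.53 for the next. Of the 50 higher ones, 24 were listed at 0 in the 3 young leaf libraries, and of the 50 lower ones, 15 in both young root libraries. The size of these differences depends on the pseudocount of 1. Of the 10 most abundant transcripts, 6 on the root side and 7 on the leaf side were also in these sets.

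The 50 root-side transcripts had a median of 1939 in young root, 561 in radicle, 107 in germinating seed, 8.99 in crown meristem and 4.63 in plumule. In vegetative stem and the 3 panicle stages the median was below 1. They held 25.9% and 25.8% of the young root totals, against 0.0702%, 0.0620% and 0.0671% of the young leaf totals, and 8.31% to 12.1% of the radicle totals. Singly they agreed less well: the young root libraries differed by a median of 1.36-fold and by at most 20.2-fold. Of the 50, 41 were higher in radicle than in plumule by 1 or more on the log2 scale. So were 44.6% of all 9755 higher transcripts and 11.8% of all kept transcripts. In 36 of the 50 every radicle library lay above every plumule library, as in 46.2% of the higher and 11.0% of all kept transcripts. The radicle and plumule libraries do not enter the young root and young leaf means, but they were in the filter and in the fit's variance.

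The 50 leaf-side transcripts were wider spread. Their median was 2292 in young leaf, 284 in early panicle, 248 in plumule, 82.6 in mid panicle, 66.1 in late panicle, 38.5 in crown meristem and 37.4 in vegetative stem. It was 5.67 in young root, 1.59 in germinating seed and 1.41 in radicle. They held 0.0306% and 0.00228% of the young root totals, against 14.6%, 15.6% and 15.8% of the young leaf totals. Plumule and early panicle were each the highest of the other tissues for 20 of the 50 (40.0%), and early panicle was the highest for 58.0% of the set formed with a common sum. All 50 were lower in radicle than in plumule by 1 or more on the log2 scale. So were 64.0% of all 12469 lower transcripts and 27.3% of all kept transcripts. In 48 of the 50 every radicle library lay below every plumule library, as in 66.3% of the lower and 25.6% of all kept transcripts.

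**Figure D4:**
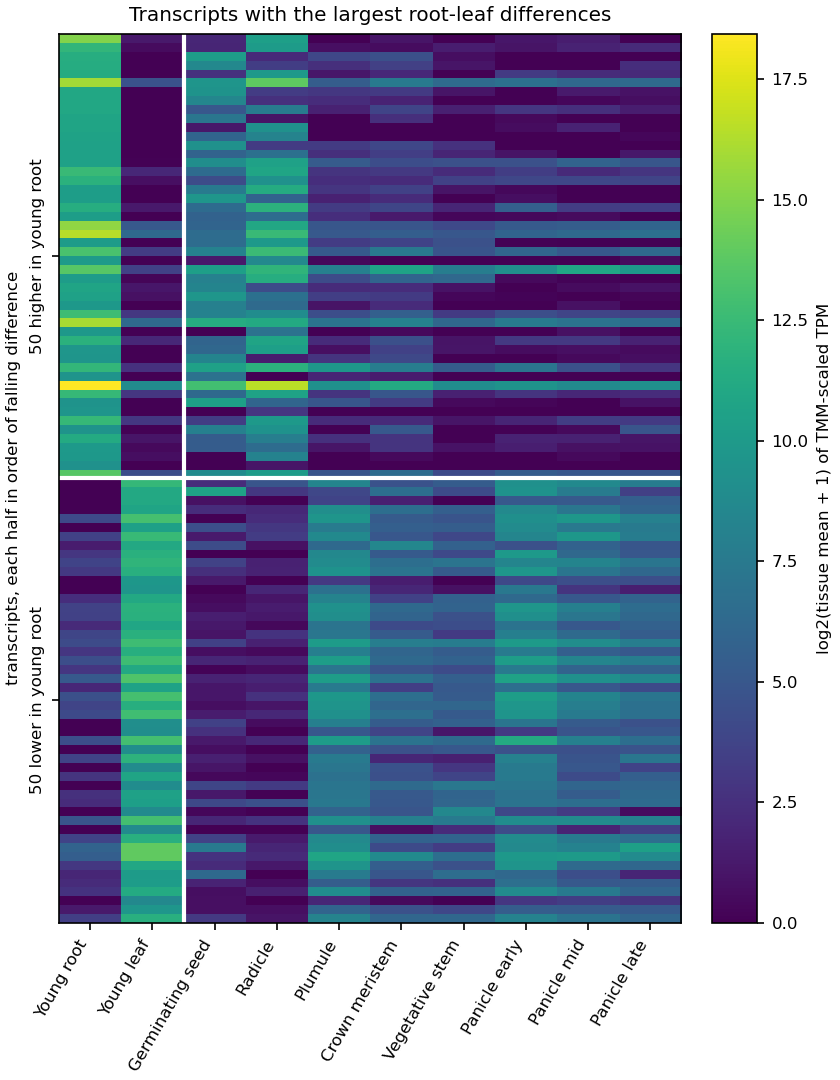
Tissue means, as log2(mean + 1) of TMM-scaled TPM, of the 50 transcripts with the largest differences on each side; each row is a transcript and each column a tissue. The upper 50 rows are bright in young root, radicle and in part germinating seed, and the lower 50 rows are bright in young leaf and, less so, in plumule and the panicle stages.

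Radicle was the highest of the other 8 tissues for 36 of the 50 root-side transcripts and germinating seed for 14. This split fixes which subset is higher in radicle relative to germinating seed, so the levels that follow are a description. Taken over the 36, the median was 1998 and 3126 in the young root libraries and 405, 1091 and 1441 in the radicle libraries. Taken over the 14, it was 1341 and 1948 in the young root libraries, but 3.51, 24.4 and 2.91 in the radicle libraries. In young root the medians of both subsets were above 1000, while 12 of the 14 had a radicle mean below 100. The 14 were also uneven within germinating seed, with a median of 1042 in library 1, 8.18 in library 2 and 277 in library 3. Library 1 was the highest for all 14, which a split by the mean of the 3 libraries favours. For the 36 the germinating seed medians were 103, 19.1 and 24.9, so in library 2 the 14 lay below the 36. Without germinating seed library 1, that tissue was the highest for 8 of the 50 root-side transcripts and radicle for 41.

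Among the 1617 transcripts higher by at least 16-fold, radicle was the highest of the other tissues for 960 and germinating seed for 279. The 279 had medians of 72.3, 3.41 and 4.80 in the germinating seed libraries. Library 1 was the highest of the 3 for 198 of them and library 2 the lowest for 94. Without germinating seed library 1, germinating seed was the highest for 156 and radicle for 1019. What sets germinating seed library 1 apart was not tested.

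**Figure D5:**
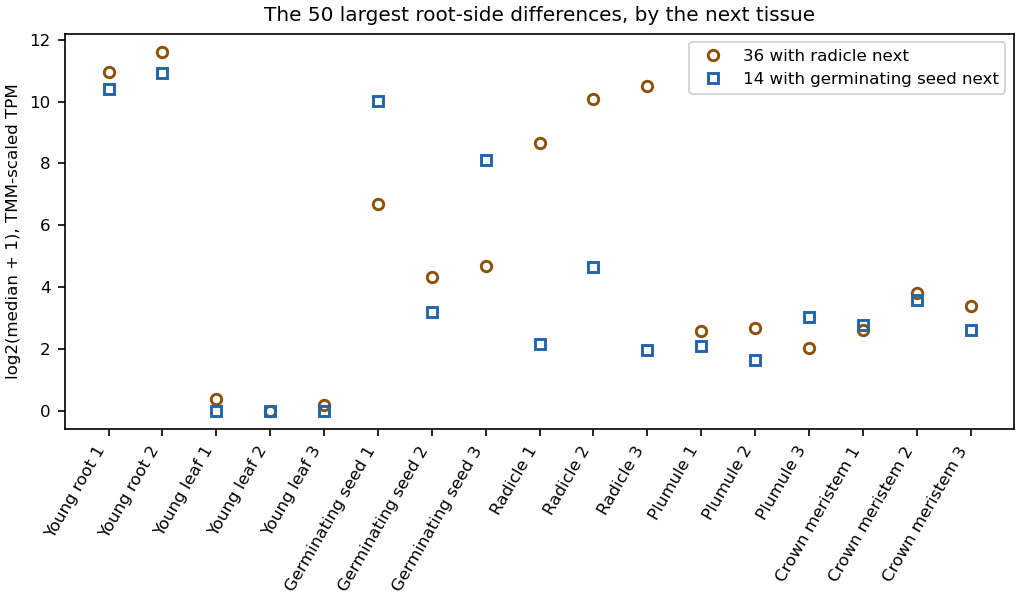
Median over the 36 root-side transcripts with radicle next (brown circles) and over the 14 with germinating seed next (blue squares) in the young root, young leaf, germinating seed, radicle, plumule and crown meristem libraries, as log2(median + 1) of TMM-scaled TPM. Both subsets are high in young root and at or near 0 in young leaf. They part, as the split by tissue mean favours, in radicle and in germinating seed libraries 1 and 3. In germinating seed library 2 the 14 lie below the 36 (median 8.18 against 19.1).

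The strong leaf transcripts were not equally low in both young root libraries. The sum over the 50 leaf-side transcripts was 841 in young root library 1 and 73.0 in library 2. Of these transcripts, 34 were higher in library 1 and 1 in library 2, with 16 listed at 0 in library 1 and 33 in library 2. Of the 125 lower transcripts with a young leaf mean of 1000 or more, 102 were higher in young root library 1 and 18 in library 2, with medians of 26.9 and 8.35. Over all 12469 lower transcripts the order turned, with 3187 higher in library 1 and 4273 in library 2. Library 1 shares its identifier series with the young leaf libraries, and the part of this in the difference was not tested.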

How the data were processed

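RNA-seq values of young root (2 libraries) and young leaf (3 libraries) were compared, with all 28 libraries of the atlas in the fit. Trinity was the assembler and kallisto the estimator of TPM, per the series design text. The submitters' processing notes also list CASAVA and Trimmomatic, with no version numbers. The deposited table holds this expression signal, scaled by TMM per the table's name. TPM-based values keep no read depth, so no count model, counting interval or floor was used. Where a small number of transcripts dominate a library, TMM scaling raises its sum.

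Computed here: R 4.3.3 with limma 3.58.1, applied to log2(value + 1) with 1 mean per tissue, no covariates, an intensity trend in the moderated variance, 18 residual degrees of freedom, two-sided, with Benjamini-Hochberg adjustment over 77548 transcripts. The fit was tested on data simulated from its own variances, the same for every tissue. Such data cannot show how the fit behaves where the spread differs between tissues. Shares, medians and exact permutation tests used Python 3.11.15, numpy 2.4.6, scipy 1.17.1 and pandas 2.3.3 (figures: matplotlib 3.10.9). The named transcripts were, on each side, the largest difference among calls with no overlap of libraries and the highest mean. The members, sets and tests were chosen with earlier results of these data known. Alternatives were other pseudocounts, filters, scalings, covariates, weights and library subsets. Those without an intensity trend, the common sum that leaves out 10 transcripts, and those without germinating seed library 1 were chosen after seeing the data.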

Additional observations from a re-analysis of the deposited data

How the results depend on the processing

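The 9755 higher and 12469 lower calls became 5832 and 7749 with only the 5 compared libraries in the fit (6111 higher without an intensity trend), 7376 lower with a pseudocount of 5 and 4843 higher with a common sum. The 1617 and 1651 calls of at least 16-fold became 4272 and 6114 with a pseudocount of 0.1 and 484 and 531 with 5. Those of at least 16-fold that were higher became 592 with a common sum, 2554 within the first library series (2552 without an intensity trend) and 2622 without young root library 2. Leaving out single libraries gave 8648 to 11502 higher and 11024 to 12290 lower, and 1582 to 2622 and 1657 to 1854 of at least 16-fold. The fits without a young root library rest on 1 library, assumed to vary like the other tissues. In no alternative was a transcript of the 9755 called lower or one of the 12469 called higher.

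The difference in transcripts at 1 or more, -2727 in young root minus young leaf, was -3245 to -2346 without single libraries, -7556 with a common sum and -5147 at a threshold of 0.5, and at a threshold of 5 it was 571 (exact permutation p = 0.5). The 10 most abundant transcripts of each library itself held on average 64.7% of the total in young root and 10.1% in young leaf (exact permutation p = 0.1). This difference of 54.5 percentage points was 49.6 to 59.5 without single libraries. TRINITY_DN4135_c0_g2_i1 and TRINITY_DN61880_c0_g1_i1 kept their calls in 22 of 22 alternatives, and TRINITY_DN7657_c1_g1_i63 and TRINITY_DN36129_c0_g1_i1 in 20 of 22. Deviations from the tissue means correlated at 0.01 and 0.06 for the same-numbered young root and young leaf libraries. With 2 young root libraries these deviations mirror each other, so the values cannot tell whether libraries were paired. With the replicate number as a block 9638 were higher and 12291 lower, with 1618 and 1649 of at least 16-fold. With the library identifier series as a covariate 10460 were higher and 12241 lower, with 1754 and 1723 of at least 16-fold.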

Other observations

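The assembler groups transcripts that share sequence into read clusters, which can hold splice forms, alleles, gene copies or related genes. Of the 70632 clusters with kept transcripts, 5727 held 2 or more, and 1366 held at least 2 called between young root and young leaf. In 489 of these every called member was higher in young root, in 519 every called member was lower, and in 358 (26.2%) members were called in both directions. Of the 1209 clusters with exactly 2 called members, 443 had both higher, 472 both lower and 294 (24.3%) 1 of each. Near-identical copies share reads, so the split between members of a cluster is uncertain.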
